A study of Mus musculus with 192 samples.

Results

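Matriptase, prostasin, their Kunitz-type inhibitors, urokinase, the urokinase receptor and a pair of matrix metalloproteinases were followed through a list of open-chromatin windows. The 8 genes were St14, Prss8, Spint1, Spint2, Plau, Plaur, Mmp9 and Mmp14, and they were grouped by function, with earlier results of these data known. Every window of 500 bp that touched a gene body or the 10 kb on either side of it was taken, which gave 50 of the 50000 windows in the list. Of these, 22 (44%) lay within 1 kb of an annotated transcript start and 28 lay away from starts, whereas 17929 windows of the whole list (35.9%) lay within 1 kb of a start. Among the 22 windows, 15 were at a start of the member itself and 7 at the start of a neighbouring gene.

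The windows came from Pi-ATAC, in which fixed cells are transposed in bulk, stained for proteins and index-sorted into single wells, so that surface protein and accessible DNA are read from each cell. Cells of 4T1, a line derived from a mouse mammary carcinoma, were sorted as EpCAM-positive (an epithelial surface protein), splenocytes were sorted as CD45-positive (a leukocyte surface protein), and both had been mixed beforehand. The splenocyte donor was an MMTV-PyMT animal free of tumours when killed, a model in which the MMTV promoter drives the oncogene chiefly in mammary epithelium. Titles gave 96 cells in each group, and source names gave 95 and 97, since 1 cell titled as 4T1 had the source name of the splenocytes. No other treatment, time or age was given in the labels used here, and 4T1 is a single line.

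Only 1 list was analysed, with peak names that were read as calls on pooled cells, and it held positions but no score or count for a window. There were therefore no replicates and no test, and the main counts below are set beside the same count over all windows or all 22350 protein-coding genes. Whether a window was open in the 4T1 cells, in the splenocytes or in both cannot be told apart in such a list. The depth of the single-cell libraries was not analysed here.

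Cells use these enzymes to cut proteins at and just outside their own surface. Matriptase and prostasin are membrane-anchored serine proteases of epithelia that activate each other, and both are held in check by the Kunitz-type inhibitors HAI-1 and HAI-2. Matriptase can also activate urokinase, which turns plasminogen into plasmin while bound to its receptor, and plasmin and the matrix metalloproteinases then cut fibrin, collagen and other matrix proteins. The system is known in breast tissue for its part in epithelial turnover, wound repair and tumour invasion.

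Stretches of DNA just before the annotated 5′ start are shown for the 6 members whose 5′ start lay in a listed window, because these are the promoters that the list places in open chromatin. Each runs 5′ to 3′ on the strand of its gene in mm9 and ends at the base before the start. Capitals mark short words searched for as matches to known factor consensus sequences, and the remaining bases are in lower case.
St14 upstream, chr9:30939439-30939558, minus strand: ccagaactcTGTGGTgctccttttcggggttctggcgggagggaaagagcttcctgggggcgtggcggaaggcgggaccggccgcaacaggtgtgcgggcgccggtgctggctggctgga
Prss8 upstream, chr7:135073628-135073747, minus strand: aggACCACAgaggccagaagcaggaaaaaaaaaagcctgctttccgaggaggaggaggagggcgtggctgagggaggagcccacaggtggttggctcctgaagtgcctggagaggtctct
Spint1 upstream, chr2:119062978-119063097, plus strand: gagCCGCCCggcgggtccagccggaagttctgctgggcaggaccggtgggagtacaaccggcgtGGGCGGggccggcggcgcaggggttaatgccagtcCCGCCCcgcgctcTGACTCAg
Spint2 upstream, chr7:30066997-30067116, minus strand: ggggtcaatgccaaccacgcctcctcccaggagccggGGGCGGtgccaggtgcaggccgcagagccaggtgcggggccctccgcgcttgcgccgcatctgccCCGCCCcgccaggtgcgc
Plau upstream, chr14:21655764-21655883, plus strand: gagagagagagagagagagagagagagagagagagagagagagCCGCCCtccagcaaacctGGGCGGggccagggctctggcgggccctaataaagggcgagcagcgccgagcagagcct
Plaur upstream, chr7:25247399-25247518, plus strand: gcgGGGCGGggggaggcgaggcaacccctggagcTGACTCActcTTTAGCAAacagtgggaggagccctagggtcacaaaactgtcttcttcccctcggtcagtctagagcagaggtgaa
The stretches at Spint1, Spint2 and Plau held GC boxes (GGGCGG or its complement CCGCCC, a word bound by SP and KLF proteins). At Spint1, 3 GC boxes were followed by an AP-1 word (TGACTCA) centred at -5 bp. The Plaur stretch held a GC box, an AP-1 word centred at -83 bp and a C/EBP word (TTTAGCAA, a match to TTGCNNAA on the other strand). At St14 and Prss8, the only capitals were a RUNX word (TGTGGT or its complement). Window 3 of St14 also held a GC box, centred at 3 bp and so just past the end of the stretch shown. A match is a string of letters, and binding was not measured.

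All 8 members had a window within 1 kb of a start of their own, against 48.1% of protein-coding genes (10759 of 22350). A window away from starts was present at 7 of 8 members, Spint2 being the exception, against 43.8% of genes (9799 of 22350). The median was 4.5 windows per locus for the members and 2 for all genes, and 31.8% of genes had none. Away from starts, the median was 3 windows for the members and 0 for all genes, where the mean was 1.14. Per 10 kb of locus, the median density was 1.63 windows at the members and 0.316 at all genes.

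**Figure D1:**
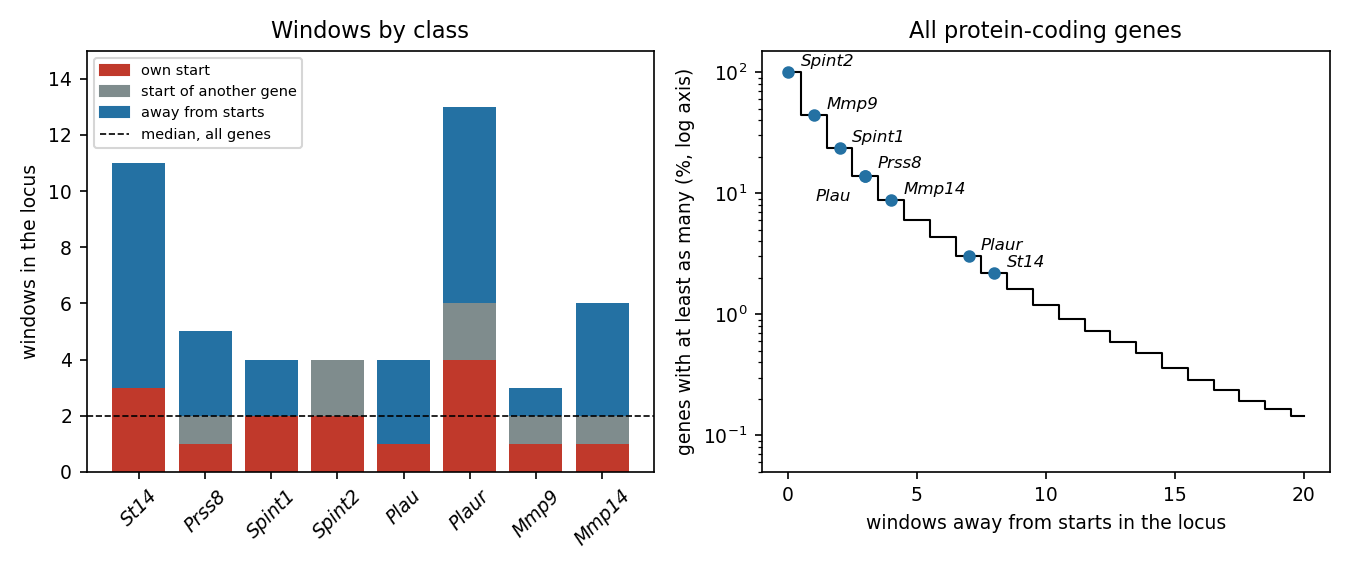
Left, listed windows in the locus of each member (vertical axis, number of windows), stacked by class, with the median of all protein-coding genes as a dashed line. Right, percent of all 22350 protein-coding genes with at least as many windows away from starts (log axis) against that number, with the members marked; Plaur with 7 and St14 with 8 lie furthest right, and Spint2 is at 0.

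St14, which encodes matriptase, had 11 windows, and 2.20% of genes had at least as many. The gene spans chr9:30896987-30939438 on the minus strand. Windows 3 to 5, numbered from the 5′ end, covered the start, with summits at 42, 630 and 1075 bp from it. The summit of window 3 lay in the annotated untranslated region of the first exon and the other summits in the first part of the transcribed region, in introns. A pair of windows stood upstream, at -2.47 and -5.59 kb, and 6 further ones lay in introns, between 3.8 and 14.15 kb from the start. No listed window lay in the rest of the gene or the 10 kb past its end, although the gene is 42.5 kb long. The most distal group, windows 8 to 11, occupied 3.62 kb with no unlisted call between its members.

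Prss8, which encodes prostasin, a protease held at the membrane by a lipid anchor, had 5 windows in a locus of 24.4 kb at chr7:135069239-135073627 on the minus strand. Window 5 covered the start, with its summit at 112 bp. Windows 2, 3 and 4 were summits of a single peak call and overlapped, at -2.34, -1.96 and -1.61 kb, so they are not independent regions. Window 1, at -5.47 kb, had its summit 66 bp from the start of Prss36, a neighbouring serine protease gene, and counts as a window of that start. At least as many windows away from starts were found at 13.8% of genes, and at least as many per kb of locus at 2.29%.

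Each inhibitor gene had a pair of windows at its start. Spint1, which encodes HAI-1, had 4 windows, and those at its start had summits at -594 and -205 bp (chr2:119063098-119075263, plus strand). Its other windows stood at -5.24 kb, where the nearest protein-coding start was that of Ppp1r14d at 2216 bp, and at 13.48 kb, past the end of the gene. Spint2, which encodes HAI-2, had windows at 59 and 521 bp from its start (chr7:30041350-30066996, minus strand) and none in the remainder of its 25.6 kb. Its other 2 windows, at 33.46 and 34.49 kb, belonged to the start of 2200002D01Rik on the far side. Between windows 2 and 3 of Spint2, 3 numbered calls were not in the list, so calls outside the list lay in that gap.

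Plau, which encodes urokinase, had 4 windows, and window 3 had its summit 3 bp from the annotated start (chr14:21655884-21662610, plus strand). Windows 1 and 2 lay upstream at -5.13 and -2.17 kb, and window 4 lay downstream at 13.95 kb. Every numbered call between the first and the last window was in the list. None of the 4 windows was near the start of another protein-coding gene.

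Plaur, which encodes the receptor that holds urokinase at the cell surface, had 13 windows, and 1.28% of genes had at least as many. Windows 1 to 9 formed a run of 6.41 kb from -5414 to 993 bp around the start, of which 4070 bp were covered (gene at chr7:25247519-25260892, plus strand). Within that run, 5 windows lay away from starts and 4 at the start of Plaur itself, and 1 call was not in the list. Window 10 lay in an intron at 8.05 kb. Windows 11 to 13 lay past the gene, near the start of Cadm4, an adhesion molecule gene, with summits 1733, 1072 and 128 bp from it, and windows 12 and 13 were counted to that start. Calls with several summits gave 7 of the 13 windows. At least as many windows away from starts per kb of locus were found at 0.456% of genes.

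**Figure D2:**
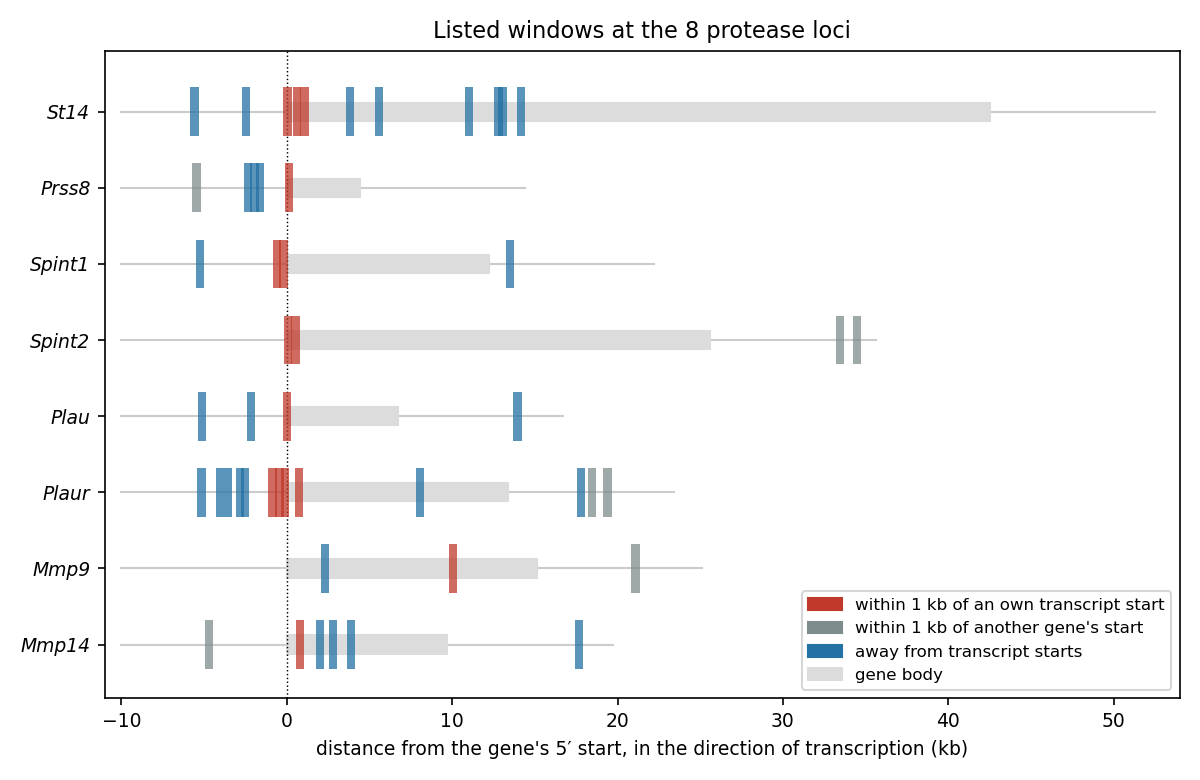
Listed windows along each of the 8 loci, with distance from the annotated 5′ start on the horizontal axis (kb, in the direction of transcription) and each window coloured by class. Plaur shows a run of 9 windows around its start, St14 a set of 6 intronic windows up to 14.15 kb, and Mmp9 none at its 5′ start.

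The metalloproteinase genes differed from the others in where their start windows lay. Mmp14 encodes MT1-MMP, a membrane-anchored enzyme that cuts collagen and activates MMP2, and it had 6 windows (chr14:55050441-55060095, plus strand). The window counted to its start had its summit at 815 bp, in an intron, and ran from 565 bp onwards, so the 5′ start itself was outside every listed window. Windows 3, 4 and 5 followed in introns at 2.01, 2.78 and 3.89 kb, with no unlisted call between windows 2 and 5. Window 6 lay downstream at 17.67 kb, and window 1, at -4.70 kb, had its summit 6 bp from the start of Mrpl52, a mitochondrial ribosomal protein gene.

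Mmp9 encodes a secreted gelatinase that leukocytes and tumour cells release, and it had 3 windows, the fewest of the members (chr2:164766280-164781350, plus strand). Window 1 lay in an intron at 2.29 kb and window 2 in a coding exon at 10.05 kb. Window 2 counted as a start window only because a transcript annotated as a retained intron begins 134 bp from its summit. No window lay within 1 kb of either protein-coding start of Mmp9, so with starts of protein-coding transcripts alone 7 of 8 members had a start window. The share of all genes under that rule was not computed. Window 3, at 21.09 kb, belonged to the starts of Slc12a5 and Gm11459. At 36.4% of genes there were at least as many windows as at Mmp9.

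Near the 1 kb limit, window 5 of St14 had its summit 1018 bp and window 12 of Plaur 1072 bp from a start, and both were inside because their edges reached the region. Just outside it were window 4 of Prss8, at 1610 bp, and window 11 of Plaur, at 1733 bp. Of the 28 windows away from starts, 11 had their summit in an intron of the member, 13 upstream of it and 4 past its end, and for 24 the member was the nearest protein-coding start. Calls with several summits gave 14 of the 50 windows (28%), against 18.2% in the whole list. They were 7 of the 22 windows within 1 kb of a start, where the whole list had 33.0%, and 7 of the 28 away from starts, where it had 9.96%. All 14 lay at Plaur (7), St14 (4) and Prss8 (3), and the other members had 0. Single calls gave several of these windows each, so they are not independent regions.

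Peak calls were numbered along the genome, so calls that fell below the limit of the list could be counted. Over the whole numbering 38.0% of calls were listed, with 38.2% on chromosome 14 and 42.0% on each of chromosomes 2, 7 and 9, which hold the members. Between the first and the last window of each member, 42 of 59 calls (71.2%) were listed, a span that favours listed calls because it begins and ends on them. When each span was widened to the calls just inside the next listed windows on either side, 42 of 89 (47.2%) were listed. The calls added in this way are all unlisted, so the wider span favours unlisted calls. Neither share is free of the choice of span. The calls not listed were 6 at St14, 3 each at Spint2, Plaur and Mmp14, 1 each at Spint1 and Mmp9, and 0 at Prss8 and Plau in the narrower span.

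Counted by window and not by gene, the own starts of the members had a lower median CpG ratio than start windows of the whole list. Plaur gave 4 of the 15 own-start windows, with windows 6, 7 and 8 summits of a single call, and St14 gave 3. A median over genes was not taken. The CpG ratio is the observed number of CpG dinucleotides over the number given by the C and G content, and is high in CpG islands. Its median was 0.478 in the 15 windows at an own start and 0.693 in all windows within 1 kb of a start, while the median GC content of the 22 member windows within 1 kb of a start, 59.1%, was near that of all such windows, 59.2%. Spint2 had the highest own-start ratio, at 0.858, with 0.734 in its other start window, followed by the Mmp14 window at 0.846, and St14 (0.729) and Spint1 (0.726) had 1 window each above the overall median. The ratios at Plaur were 0.293, 0.238, 0.290 and 0.366, between percentile 9.98 and 19.3 of all start windows, and the Prss8 window had 0.311, at percentile 15.5. Plau, with 0.520, and Mmp9, with 0.478, lay between these. In the 28 windows away from starts, the median was 0.239, against 0.212 in all such windows.

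**Figure D3:**
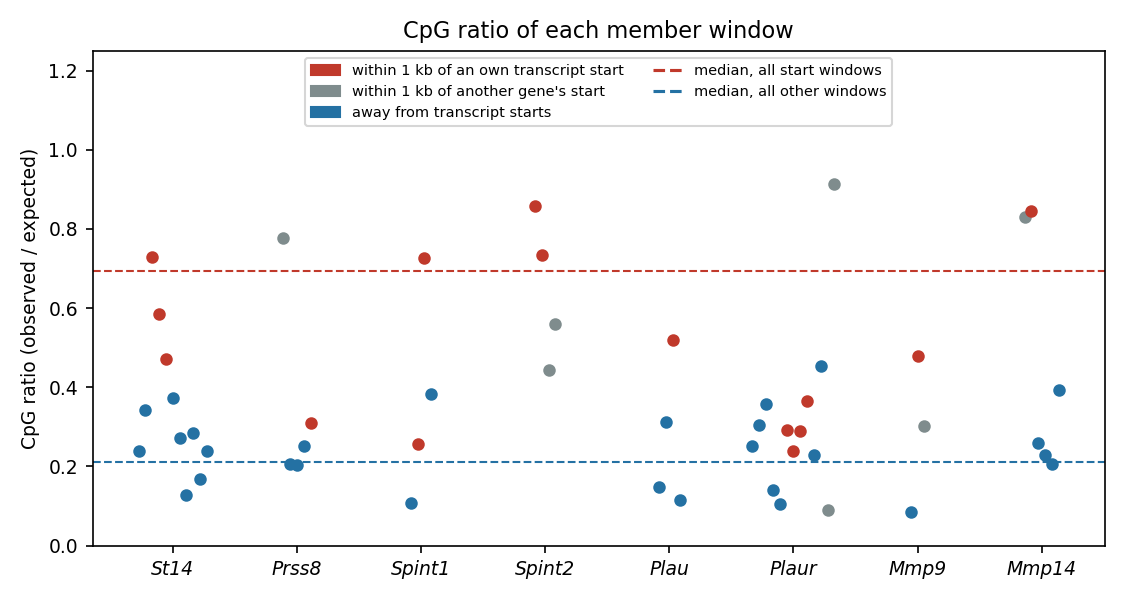
CpG ratio (observed over expected, vertical axis) of each member window by gene and class, with the medians of all windows of the class in the list as lines. The 4 windows at the start of Plaur lie between 0.238 and 0.366, below the median of 0.693 for windows within 1 kb of a start, and both windows at the start of Spint2 lie above it.

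Sequence around the summits of 7 windows away from starts, 1 per member except Spint2, is shown because these windows held the words that the members shared. AP-1, a dimer of FOS and JUN proteins, binds TGANTCA, and the capitals mark this and the other words searched, as in the stretches above. Each is written 5′ to 3′ on the strand of its gene in mm9.
St14 window 7, chr9:30933785-30933945, minus strand: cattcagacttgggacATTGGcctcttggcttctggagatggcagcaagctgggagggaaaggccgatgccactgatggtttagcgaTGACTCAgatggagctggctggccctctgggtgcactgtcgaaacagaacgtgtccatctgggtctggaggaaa
Prss8 window 4, chr7:135075137-135075337, minus strand: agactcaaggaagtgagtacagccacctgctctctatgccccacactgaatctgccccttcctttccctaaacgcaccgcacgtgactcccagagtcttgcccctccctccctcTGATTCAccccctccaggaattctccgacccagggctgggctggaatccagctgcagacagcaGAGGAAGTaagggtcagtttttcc
Spint1 window 4, chr2:119076527-119076627, plus strand: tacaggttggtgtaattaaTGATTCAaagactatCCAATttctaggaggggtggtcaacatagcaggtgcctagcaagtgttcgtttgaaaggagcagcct
Plau window 2, chr14:21653600-21653820, plus strand: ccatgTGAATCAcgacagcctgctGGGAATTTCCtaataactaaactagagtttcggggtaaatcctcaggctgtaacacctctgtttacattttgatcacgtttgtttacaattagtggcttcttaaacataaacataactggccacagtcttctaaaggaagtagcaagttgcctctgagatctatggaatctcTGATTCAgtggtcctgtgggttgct
Plaur window 10, chr7:25255507-25255627, plus strand: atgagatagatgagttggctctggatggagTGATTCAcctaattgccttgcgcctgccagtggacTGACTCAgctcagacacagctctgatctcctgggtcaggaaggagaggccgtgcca
Mmp9 window 1, chr2:164768426-164768706, plus strand: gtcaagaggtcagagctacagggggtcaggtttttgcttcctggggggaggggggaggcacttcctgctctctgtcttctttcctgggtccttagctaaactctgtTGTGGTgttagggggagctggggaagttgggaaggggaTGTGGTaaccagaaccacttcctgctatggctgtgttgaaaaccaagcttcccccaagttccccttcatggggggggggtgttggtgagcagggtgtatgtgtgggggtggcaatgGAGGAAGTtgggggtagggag
Mmp14 window 5, chr14:55054188-55054468, plus strand: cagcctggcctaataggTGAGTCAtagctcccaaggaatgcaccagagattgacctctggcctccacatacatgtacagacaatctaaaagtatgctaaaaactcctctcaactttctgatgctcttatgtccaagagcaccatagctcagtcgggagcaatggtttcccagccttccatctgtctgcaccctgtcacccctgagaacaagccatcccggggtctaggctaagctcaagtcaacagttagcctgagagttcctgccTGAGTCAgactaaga
An AP-1 word lay close to the summit in window 7 of St14 (TGACTCA), in window 4 of Prss8 and in window 4 of Spint1 (both TGATTCA). Window 2 of Plau held a pair of AP-1 words on either side of its summit and an NF-kB word (GGGAATTTCC). Both AP-1 words of window 10 of Plaur lay within the stretch shown, at -27 and 8 bp from the summit, and those of window 5 of Mmp14 at -120 and 129 bp. Window 1 of Mmp9 held a pair of RUNX words at -32 and 6 bp from its summit and a PU.1 word (GAGGAAGT) at 124 bp, and its AP-1 word lay outside the stretch shown.

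The AP-1 word was in 18 of the 50 member windows (36%), against 24.8% of all windows. At least 1 window of each of the 8 members held it, but the share of all genes with such a window was not computed. Away from starts it was in 12 of 28 member windows (42.9%), against 31.9% of such windows in the list. Within 1 kb of a start it was in 6 of 22 (27.3%), against 12.2%. With each position counted once, the members had 23 AP-1 words, of which 16 were TGAGTCA or its complement TGACTCA and 7 were TGAATCA or TGATTCA. In all windows the same letters numbered 11811 and 3771, counted per window, so a site in overlapping windows counts more than once there. Counted per window, the members also had 23 words. The word lay within 100 bp of the summit for 15 of the 23 (65.2%), against 47.2% of such words in all windows, and the median distance was 87 bp against 107 bp. Plaur had 5 windows with the word, Spint2 had 1, in a window that belongs to the start of 2200002D01Rik, and the remaining members had 2 each.

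The grainyhead-like word (GRHL, AACNGGTT), bound by factors of epithelia, was in 6 of the 28 member windows away from starts (21.4%), against 3.7% of such windows in the list. These were window 1 of St14, window 4 of Plau, windows 1, 2 and 11 of Plaur and window 6 of Mmp14, each with a word at a different position. None of the 22 windows within 1 kb of a start held it, where the whole list had 2.98%. The NF-kB word was in 4 of 50 windows (8%), against 2.28%, in window 8 of St14, window 2 of Spint1, window 2 of Plau and window 4 of Mmp14. The TEAD word (ACATTCC) was in 4 windows (8%), against 7.78%, in window 6 of St14, window 1 of Spint1 and windows 4 and 10 of Plaur. All 4 were away from starts (4 of 28, 14.3%, against 9.22%), and 0 of 22 were within 1 kb of a start, against 5.19%. These words were chosen from 18 that were searched, on both strands, and the largest gaps among 18 words over 28 windows have no error estimate here.

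Words of promoters and of blood cells stood on both sides of their share in the list. The GC box was in 12 of 22 member windows within 1 kb of a start (54.5%), against 62.5%, and the NFY word (CCAAT) in 4 of 22 (18.2%), against 45.1%. Away from starts, by contrast, CCAAT was in 16 of 28 (57.1%), against 46.8%. RUNX words were in 13 of 50 windows (26%), against 32.1%, and the PU.1 word in 2 (4%), against 4.63%, those of Prss8 window 4 and Mmp9 window 1. Both PU.1 windows were among the 28 away from starts (7.14%, against 4.92%). RUNX words were in 8 of those 28 windows (28.6%), against 37.6%, and in 5 of the 22 within 1 kb of a start (22.7%), against 22.3%. The C/EBP word was in 10 windows (20%), against 16.9%, and the KLF word CACACCC in 9 (18%), against 14.5%. Within 1 kb of a start, each of these was in 5 of 22 windows (22.7%), against 13.9% for C/EBP and 13.7% for KLF, and away from starts C/EBP was in 5 of 28 (17.9%), against 18.7%, and KLF in 4 of 28 (14.3%), against 14.9%. Overlapping windows can share a site in these counts. Windows 2 and 3 of Spint1 held the same C/EBP site (TTGCATAA), and windows 3 and 4 of Prss8 held the same RUNX sites. TATAAA was in 1 window (2%), against 17.0%. The ETS (ACCGGAAG), CREB (TGACGTCA) and CTCF words were in 1 window each, with shares of 2.22%, 1.43% and 2.01% in the list. The BACH and MAF word, which contains the AP-1 word, and the NFI, IRF and NRF1 words were in none of the 50 windows, with shares of 1.73%, 0.088%, 1.34% and 0.622%.

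**Figure D4:**
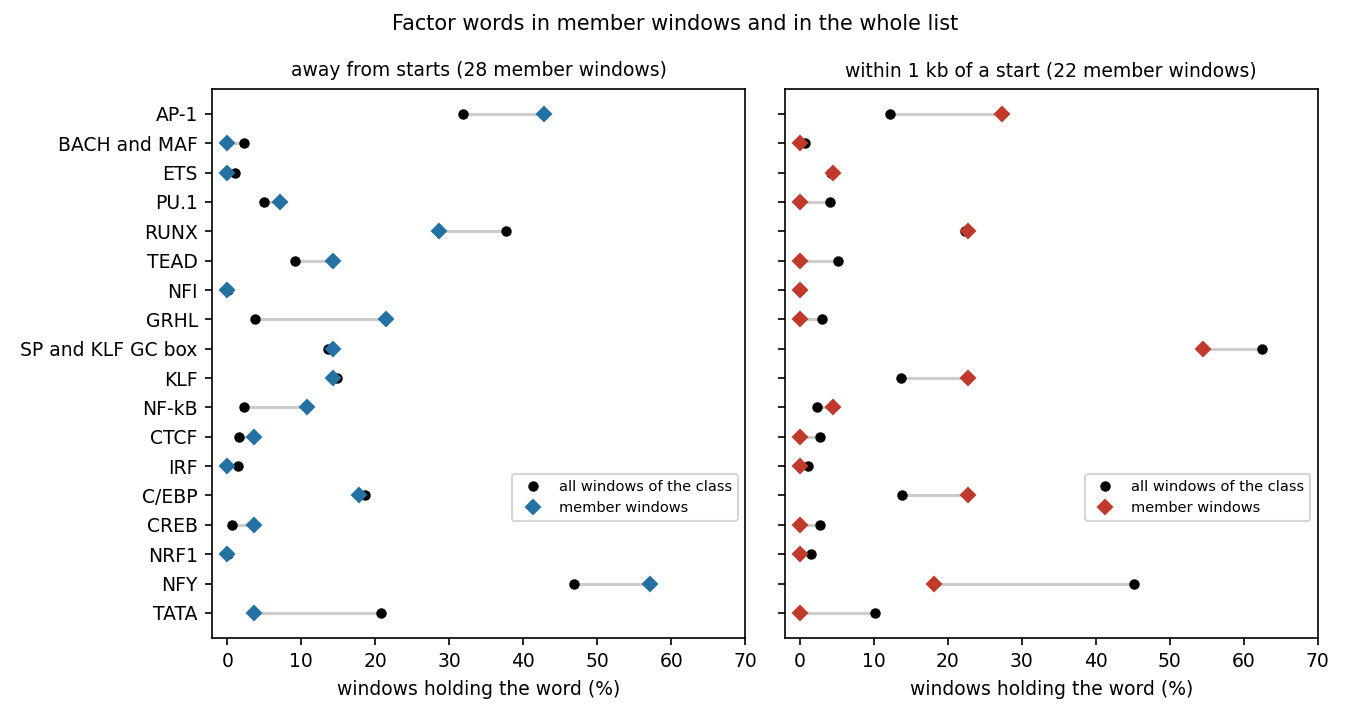
Percent of windows that hold each of the 18 words (horizontal axis), away from starts on the left and within 1 kb of a start on the right, with diamonds for member windows and black points for all windows of the class. Among windows away from starts, the members stand at 42.9% for AP-1 and 21.4% for GRHL, against 31.9% and 3.7% in the list.

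In the wider protease network, 63 further genes in 6 lists were read in the same way. Of these, 31 (49.2%) had a window at an own start, near the 48.1% of all genes, and 43 (68.3%) had a window away from starts, against 43.8%. No window at all was found at 12 of the 63 genes, where 31.8% of all genes had none. The plasminogen system showed the widest range among its genes. Anxa2 and S100a10, whose products form a surface receptor for plasminogen and its activator, had 16 and 12 windows, 13 and 9 of them away from starts. Plat, which encodes tissue plasminogen activator, had 2 windows at its start, and Serpinb5 had 1. Plg, the plasminogen gene that is expressed chiefly in liver, and the inhibitor genes Serpinb2 and Serpine2 had none. Serpinb2, Serpine2 and Serpinb5 all lie on chromosome 1, where 30.6% of numbered calls were listed.

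The list of membrane-anchored and related serine proteases had few start windows. Only 2 of 10, Tmprss11e and Prss22, had a window at an own start, against 48.1% of all genes. A window away from starts was present at 8 of 10, against 43.8% of all genes. The most windows away from starts in this list were 4 at Tmprss2, 3 at Tmprss11e and 3 at Tmprss6. Among 11 substrates and partners of matriptase, prostasin and urokinase, 8 had a start window and 8 a window elsewhere. Cdcp1, a surface protein cut by serine proteases, had 5 windows away from starts, Scnn1a, an epithelial sodium channel subunit, had 4, and Lrp1, an endocytic receptor for protease and inhibitor complexes, had 3. Scnn1a, Scnn1b and Hgf, which encodes the growth factor that matriptase can activate, had no start window of their own.

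The next 3 lists are set beside all protein-coding genes. Of those, 48.1% had a window at an own start, 43.8% had one away from starts and 31.8% had no window. Of 18 other matrix metalloproteinase genes, 4 had a window at an own start (Mmp17, Mmp21, Mmp23 and Mmp24) and 11 had one away from starts. Mmp2, the gelatinase that MT1-MMP activates, had 6 windows away from starts and none at its own start, Mmp24 had 4 away and Mmp28 had 3. Mmp3, Mmp8, Mmp10, Mmp12 and Mmp25 had no window. Among 9 inhibitors and partners, Cd44, Furin, Bsg, Reck and Timp1 had a start window, and Timp2, Timp3, Timp4 and Lcn2 did not. Timp2, which encodes an inhibitor that also takes part in MMP2 activation, had 6 windows away from starts, Cd44 had 5 and Furin, a protease that removes the propeptide of MT1-MMP, had 4. All 7 ADAM sheddase genes had a start window, and Adam12 had 7 windows away from starts in a locus of 368.9 kb, Adam8 had 5 in 33.6 kb and Adam19 had 2 in 112.8 kb.

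**Figure D5:**
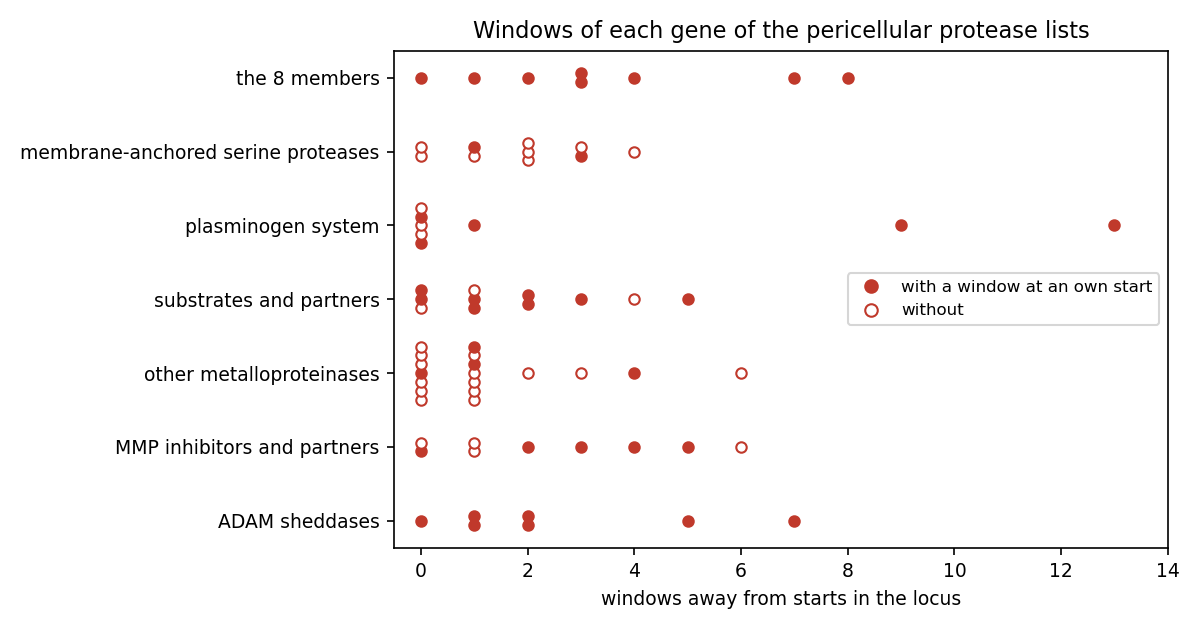
Number of windows away from starts in the locus (horizontal axis) of each gene of the members and of 6 protease lists, 1 point per gene, filled where the gene had a window at an own start. All 8 members and all 7 ADAM genes are filled, 2 of 10 membrane-anchored and related serine proteases and 4 of 18 other metalloproteinases are, and Anxa2 lies furthest right at 13.

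Markers of the cells in the pool were read beside the members. Over all protein-coding genes, 48.1% had a window at an own start and 43.8% had one away from starts. All 10 epithelial genes had a window at an own start, and 9 had one away from starts. Epcam, which encodes the protein used to sort 4T1 cells, had 2 windows at its start and 2 away from starts. Of 7 leukocyte genes 3 had a start window and 6 had a window away from starts. Ptprc, which encodes CD45, had none at its start and 3 windows elsewhere. The B cell and T cell lists had start windows at 1 of 5 and 2 of 5 genes, and windows away from starts at 5 of 5 and 3 of 5. In the myeloid list, 6 of 9 genes had no window, against 31.8% of all genes, among them the neutrophil genes S100a8, S100a9, Ly6g, Mpo and Elane and the macrophage gene Lyz2. The part of each cell type in the windows of the members was not tested.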

How the data were processed

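Pi-ATAC libraries of single cells, 96 per group by title, were represented by 1 deposited list. As the study's methods describe, the authors mapped reads to mm9 with Bowtie2 2.1.0, removed duplicates with Picard 1.79, called summits with MACS2 (version not given in the sources used here) and kept the best windows of 500 bp by q-value. The deposited values were window coordinates in bp (starts and ends) beside a peak name, with no score, so a window's strength and counting error were unknown, and the cells behind it were pooled. Windows near each other can belong to a single broad peak, and the limit on the list removes weaker calls.

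Windows overlapping by at least 1 bp a gene body or the 10 kb on either side (GENCODE vM1, protein-coding genes of the autosomes and X) were assigned to each gene. Start windows were those touching the 1 kb either side of an annotated transcript start (protein-coding or long non-coding gene). CpG ratio, GC content and 18 consensus words, on both strands, were read from mm9 sequence. Its chromosome names matched the list, and the last window of each chromosome ended inside the chromosome. The members, lists and words were chosen with earlier results of these data known. All members are named with every window, with the 3 genes of each list with most windows away from starts (ties by name), genes of a list with or without a start window where these were at most 5, and Epcam and Ptprc. Markers without windows and the genes at neighbouring starts were named after their values were seen. For 1 gene that meets this rule, no values are given here. Likeness between genes is not defined on 1 pooled list. Alternatives covered the flank, the start distance, merged windows, gene assignment, starts used, multi-summit windows, word position and letters and the span of calls. The scripts were tested on simulated data. Python 3.11.15, numpy 2.4.6, scipy 1.17.1 and matplotlib 3.10.9 were used.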

Additional observations from a re-analysis of the deposited data

How the results depend on the processing

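Of 31 recomputed values, 27 stayed within the limit set and 4 moved further. For counts the limit was 1.5 times the reported count. For the listed share of calls it was an exact 95% binomial interval around 71.2%, used only as a label. With a start distance of 2.5 kb in place of 1 kb, 34 windows were near a start and 16 away. Restricted to multi-summit windows, 2 of 8 members had an own-start window, where 13.0% of all genes did. With the span of calls widened, which adds only unlisted calls, the listed share around the members was 47.2% in place of 71.2%. Flanks of 5 and 25 kb gave 42 and 67 windows, merging gave 40, and assignment to the nearest protein-coding start gave 39. Own-start windows were at 7 of 8 members within 500 bp (46.3% of genes), at outermost starts only (44.9%) or, in an alternative chosen after seeing the data, at protein-coding transcript starts only. For that last alternative, the share of all genes was not computed. AP-1 words were in 13 windows within 100 bp of the summit and in 14 as TGAGTCA or its complement alone. No paired analysis was possible because the list is 1 pooled sample. The absence of a score, a count or a second list limits every value.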

Other observations

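Among 5 fibroblast genes, which neither sort selects for, 2 had windows, whereas 31.8% of all genes had none. Col1a1, a collagen chain gene, had 6 windows, 5 of them away from starts, and Pdgfra, a growth factor receptor gene, had 4, with 3 at its own start, whereas Col1a2, Dcn and Lum had none. Of the myeloid genes, Csf1r, the receptor of a macrophage growth factor, had 3 windows, none of them near a start, Itgam had 1 away from starts, and Cd14 had 3, of which 1 was at its own start and 2 at the start of another gene. Numbered calls were listed unequally along the genome, from 27.2% on the chromosome with the lowest share to 44.4% on that with the highest. These genes were described after their values were seen.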
